A study of Mus musculus with 6 samples.

Results

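Fbn1, Megf6, Vcan, Hpse2 and Hpse encode proteins of the extracellular matrix or enzymes that act on it, and their RNA was followed in leukemic CD11b+Gr1+ splenocytes that had or lacked the ribosomal protein Rpl22. They are 5 of 29374 genes with any estimated read. Fbn1, Megf6, Vcan and Hpse2 were picked because they lay among the largest differences between the genotypes, and Hpse because it is the paralog of Hpse2. The genotype differences of the first 4 are therefore a description and carry no test, and Hpse was tested as 1 gene of a comparison across all genes. CD11b+Gr1+ cells were purified by flow cytometry from the spleens of tumor-bearing Mll-AF9 mice, whose knockin fusion of Mll with AF9 causes myeloid leukemia. There were 3 libraries from Rpl22+/+ Mll-AF9 mice and 3 from Rpl22-/- Mll-AF9 mice, and both groups carried the oncogene. The study's methods describe young adult mice backcrossed to C57BL/6 and give no agent for these samples. Its text gives the explants 1 mouse identifier per genotype. Separate animals are not stated for the 3 libraries of either group. Errors and p-values therefore measure only the spread between libraries, which may be technical. If the libraries of a genotype came from 1 mouse, genotype and individual tumor cannot be told apart.

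Fibrillin-1, the product of Fbn1, polymerizes into the microfibrils that scaffold elastic fibers and hold latent TGF-beta in the matrix. Versican, encoded by Vcan, is a large chondroitin sulfate proteoglycan that binds hyaluronan at its amino terminus, and monocytes are among the blood cells known to express it. Heparanase, encoded by Hpse, is the endoglycosidase that cleaves heparan sulfate chains, whereas heparanase-2, encoded by Hpse2, binds heparan sulfate without cleaving it and can inhibit heparanase. Megf6 encodes a large protein built of repeated EGF-like domains whose function is little known.

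The libraries held 35828500 to 102866127 estimated reads, with Rpl22-/- replicate 1 the shallowest. Rpl22 itself was at 148, 235 and 152 CPM (reads relative to the scaled library size) in Rpl22+/+ and 58.3, 89.9 and 73.5 CPM in Rpl22-/-, a log2 fold change of -1.27 ± 0.25 (SE, n = 3 per group, adjusted p = 0.0106, edgeR). The gene was lower in the libraries labelled Rpl22-/-, reads of it remained, and the deleted part was not examined separately, so this is no check that the allele is null. No pair of libraries within a genotype agreed within sampling noise, with a chi-square per degree of freedom of at least 22.5. Over all 16656 genes tested, 1488 were called higher in Rpl22-/- (8.93%) and 1423 lower (8.54%), where a call needs a log2 fold change beyond 1 in size and, after Benjamini-Hochberg adjustment, a p-value under 0.05. Genes called in either direction made up 17.5% of those tested. In CPM the groups did not overlap for 23.9% of tested genes with Rpl22-/- higher and for 22.2% with Rpl22-/- lower. All 5 genes passed the filter on low counts, and 4 of them met the call, which their choice fixed.

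Fbn1 was nearly silent in the Rpl22+/+ libraries and well expressed in the Rpl22-/- libraries. Its level in TPM, which corrects for transcript length, was 0.0808, 0.0590 and 0.104 in the Rpl22+/+ libraries and 15.8, 12.04 and 12.9 in the Rpl22-/- libraries. The Rpl22+/+ values rested on 42, 42 and 59.1 estimated reads and the Rpl22-/- values on 4185, 9850.1 and 10300.1. Every Rpl22-/- library lay above every Rpl22+/+ library, and the log2 fold change was 7.29 ± 0.21 (SE, n = 3 per group), rank 55 of 16656 among the increases. Counted per unit depth, Fbn1 had 153 times as many reads in Rpl22-/- (95% interval for counting error only, 130 to 182). In a sorted population, less RNA per cell and fewer cells that express a gene cannot be told apart, here or for the genes that follow.

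Megf6 had the larger difference of the pair that was higher in Rpl22-/-. It was at 0.0642, 0.0407 and 0.0381 TPM in Rpl22+/+, from 23.0, 20 and 15 estimated reads, and at 32.2, 26.3 and 21.3 TPM in Rpl22-/-, from 3934, 10759.5 and 8831 reads. The groups did not overlap. The log2 fold change was 8.53 ± 0.26 (SE, n = 3 per group), rank 21 among the increases, and the reads per unit depth were 365 times as many in Rpl22-/- (282 to 481, counting error only).

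Vcan was expressed in the Rpl22+/+ libraries, at a level that differed widely between them, and was low in every Rpl22-/- library. It was at 19.4, 3.82 and 27.0 TPM in Rpl22+/+, from 7451, 1748 and 11529 estimated reads, and at 0.227, 0.293 and 0.370 TPM in Rpl22-/-, from 48.0, 148 and 280.5 reads. The lowest Rpl22+/+ library, replicate 2, still lay above the highest Rpl22-/- library, replicate 3. The log2 fold change was -5.70 ± 0.77 (SE, n = 3 per group), rank 87 among the decreases, and Vcan had 48.4 times as many reads per unit depth in Rpl22+/+ (44.2 to 53.1, counting error only). The SE of Vcan was the largest of the 5 genes, and its Rpl22+/+ libraries spanned 6.52-fold in CPM.

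Replicate 2 was the low Rpl22+/+ library for Vcan, at 23.6 CPM against 106 and 154 CPM. Without it the log2 fold change was -6.18. Replicate 2 was also the lowest Rpl22+/+ library, by at least the same 4.49-fold gap to the next, for 601 of the 12238 tested genes with an Rpl22+/+ mean of at least 1 CPM (4.91%). The libraries further differed by transcript length. Among 184 genes with transcripts longer than 8 kb, the median log2 CPM of Rpl22+/+ replicate 2 was 0.71 below the mean of the other Rpl22+/+ libraries (a log2 difference of -0.71), while for the 1370 genes of up to 1 kb it was 0.57 above. Rpl22-/- replicate 2 showed medians of -0.37 and 0.23 in the same classes. For the 2049 genes of 4 to 8 kb the median of Rpl22+/+ replicate 2 was -0.0059. The class of Vcan depends on how its length is taken: weighted by TPM over its transcripts it was 7317 bases, while transcripts of 12427 and 8332 bases held 32.7% and 62.3% of its Rpl22+/+ reads on average. Vcan was -2.44 from the other Rpl22+/+ libraries in replicate 2, and Fbn1, of 9847 bases, was -0.27. The part of transcript length in the low Vcan value was not tested.

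Hpse2 was expressed evenly in the Rpl22+/+ libraries and all but absent from the Rpl22-/- libraries. Its level was 4.04, 4.05 and 4.13 TPM in Rpl22+/+, from 879, 1207 and 986 estimated reads. In Rpl22-/- it was 0.00899, 0.00583 and 0.00597 TPM, from 1, 2 and 2 reads, so at this depth a low remaining level could not be measured with precision. The reads per unit depth were 683 times as many in Rpl22+/+, with a 95% counting interval of 292 to 2104. The fitted log2 fold change of -9.29 was rank 17 among the decreases, and its exact size depends on so few reads.

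Hpse had the highest level of the 5 genes per transcript length in both genotypes, and its difference was small. It was at 75.3, 126 and 88.1 CPM in Rpl22+/+ and at 115, 140.5 and 125 CPM in Rpl22-/-, so that the groups overlapped, Rpl22+/+ replicate 2 lying above Rpl22-/- replicates 1 and 3. The log2 fold change was 0.40 ± 0.21 (SE, n = 3 per group, 95% interval -0.11 to 0.90), a ratio of 1.32 with an interval of 0.926 to 1.87, and it did not pass the test (adjusted p = 0.222, edgeR). On the TPM scale the values were 33.98, 43.2 and 38.7 in Rpl22+/+ and 54.0, 56.8 and 55.03 in Rpl22-/-, which did not overlap. Limma on log2(TPM + 1) gave a log2 difference of 0.51 with an adjusted p of 0.0133. On that scale the log2 differences of all tested genes shifted upward by a median of 0.10 from the reported fit. EdgeR without Rpl22+/+ replicate 2 gave 0.59 for Hpse with an adjusted p of 0.0200. Across the 16 alternatives the adjusted p of Hpse ran from 0.0133 to 0.497, with a higher level in Rpl22-/- in each, so whether Hpse differs between the genotypes depended on the scaling and on 1 library.

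The make-up of the heparanase pair differed between the genotypes. Hpse2 was 10.6%, 8.57% and 9.63% of the summed TPM of both genes in the Rpl22+/+ libraries and 0.0166%, 0.0103% and 0.0108% in the Rpl22-/- libraries. The sum itself was 38.0, 47.2 and 42.9 TPM in Rpl22+/+ and 54.0, 56.8 and 55.04 TPM in Rpl22-/-. Hpse therefore made up most of the pair in all 6 libraries, and the share follows from the choice of Hpse2. No stretch of 31 bases was shared by the annotated transcripts of Hpse and Hpse2, nor by those of any other of the 10 pairs of these genes.

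Ordered by mean TPM, the Rpl22+/+ libraries ran from Hpse (38.6 ± 4.59, SD, n = 3) through Vcan (16.7 ± 11.8) and Hpse2 (4.07 ± 0.0497) to Fbn1 (0.0811 ± 0.0223) and Megf6 (0.0477 ± 0.0144). Vcan and Hpse2 were not separated there, since Vcan in replicate 2 lay below all 3 Hpse2 values, and the ranges of Fbn1 and Megf6 overlapped. In Rpl22-/- the order was Hpse (55.3 ± 1.43), Megf6 (26.6 ± 5.41), Fbn1 (13.6 ± 1.97), Vcan (0.297 ± 0.0719) and Hpse2 (0.00693 ± 0.00179), with no overlap between neighbours. The plot of TPM by library shows the levels on a common axis.

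**Figure D1:**
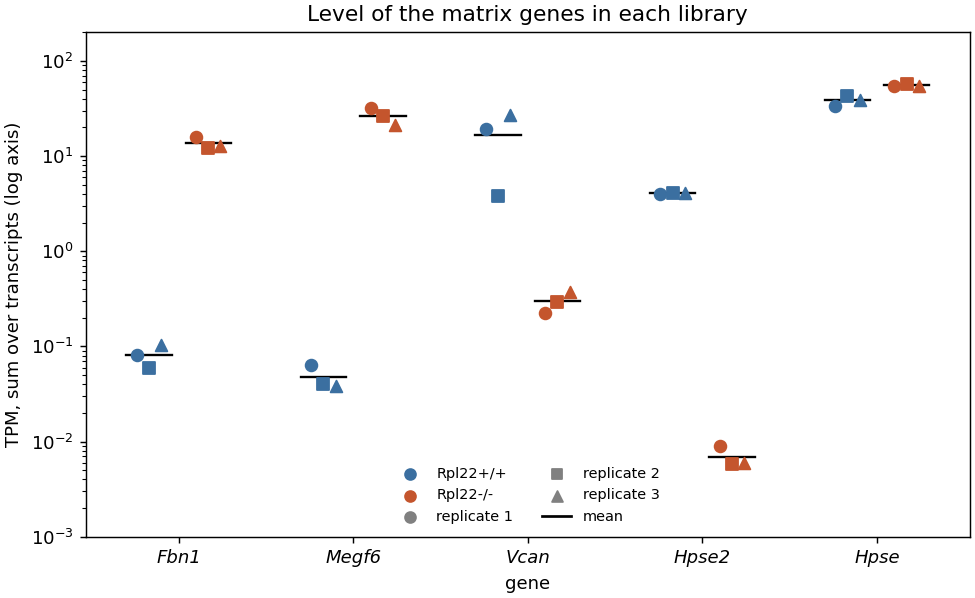
Level of the 5 genes in each library, in TPM on a log axis, with 1 point per library (blue Rpl22+/+, red Rpl22-/-, shape by replicate number) and a black line at each mean. Fbn1 and Megf6 sit above 10 TPM only in Rpl22-/-, Vcan and Hpse2 are high only in Rpl22+/+ with Vcan replicate 2 at 3.82 TPM, and Hpse is between 33.98 and 56.8 TPM in all 6 libraries.

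The transcripts behind these levels were read from the isoform estimates. Of 24 annotated transcripts of the 5 genes, 19 had reads in some library. All Fbn1 reads lay in its transcript of 9847 bases and all Hpse2 reads in its transcript of 4231 bases. The longer Hpse transcript, of 3117 bases, held 97.5% ± 2.10 (SD, n = 3) of Hpse TPM in Rpl22+/+ and 98.1% ± 0.685 in Rpl22-/-. For Megf6, the full-length transcript of 6851 bases held all of the few Rpl22+/+ reads, and in Rpl22-/- it held 66.4% ± 4.50 of TPM and 92.9% ± 1.34 of the reads. Annotated Megf6 transcripts with a retained intron made up 32.2%, 28.9% and 24.0% of Megf6 TPM in the Rpl22-/- libraries. Those transcripts are short, and they took only 4.10%, 3.91% and 2.99% of the Megf6 reads.

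Vcan is spliced into forms that differ in the attachment regions for chondroitin sulfate chains. Exon 7 (2880 bases, chr13:89702918-89705797, minus strand, GRCm38) codes for the alpha region and exon 8 (5217 bases, chr13:89688285-89693501, minus strand, GRCm38) for the beta region. V0 keeps both exons, V1 keeps only exon 8, V2 keeps only exon 7 and V3 skips both. Junctions of the forms are shown from GENCODE vM21 transcripts, all within coding exons and read from 5′ to 3′. The 15 bases before each junction are in lower case and the 15 bases after it in capitals. V0 and V2 share the first junction, and the exon 7 to exon 9 junction of V2 is not shown.
V0 and V2, exon 6 to exon 7: cctactgctttaaacCTAAACAGAATATAT
V0, exon 7 to exon 8: gagaaaacaagacagGTCGATTGAGTGATA
V1, exon 6 to exon 8: cctactgctttaaacGTCGATTGAGTGATA
V3, exon 6 to exon 9: cctactgctttaaacGACCTGATCTCTGCA

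V1 was the leading Vcan form in all Rpl22+/+ libraries, at 10.4, 1.90 and 14.5 TPM. V0 was at 4.06, 0.503 and 5.77 TPM, and V3 at 0.381, 0.728 and 0.712 TPM. V2 had reads in Rpl22+/+ replicate 3 only, where it was 0.0294% of Vcan TPM. As shares of Vcan TPM, V1 was 52.4% ± 2.22 (SD, n = 3), V0 was 18.5% ± 4.62 and V3 was 7.88% ± 9.67. The spread of V3 came from replicate 2, where V3 was 19.0% against 1.97% and 2.64% in the other Rpl22+/+ libraries. In TPM, replicate 2 was the lowest Rpl22+/+ library for V0 and V1 but the highest for V3, a transcript of 2321 bases. The rest of the Vcan TPM lay in annotated transcripts without a full coding sequence, of which Vcan-208 was the most abundant, at 3.996, 0.608 and 5.32 TPM.

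In Rpl22-/-, V1 was at 0.101, 0.147 and 0.251 TPM and V0 at 0.0728, 0.0389 and 0.108 TPM. V3 and V2 had no reads there. V0 made up 28.2%, 20.9% and 28.4% of V0 and V1 together in the Rpl22+/+ libraries and 41.9%, 20.9% and 30.1% in the Rpl22-/- libraries, ranges that overlapped. V0 had 1232 stretches of 31 bases found in no other annotated Vcan transcript, and V1 had 28.

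**Figure D2:**
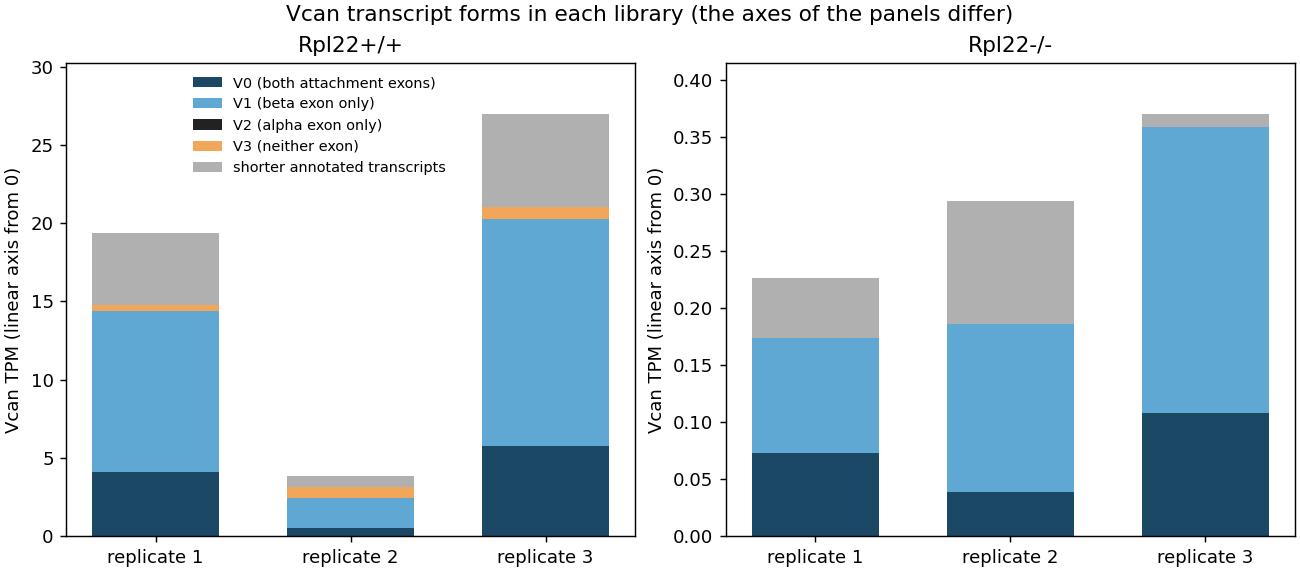
Vcan TPM in each library, stacked by splice form on linear axes from 0, with Rpl22+/+ on the left and Rpl22-/- on the right and a separate axis for each panel. V1 is the tallest named segment in each of the 6 bars, V3 is visible only in Rpl22+/+, and the Rpl22+/+ replicate 2 bar reaches 3.82 TPM against 19.4 and 27.0 TPM beside it.

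Fbn1 and Megf6, the genes that were higher in Rpl22-/-, share an exon design that the choice of genes did not use. In the full-length Megf6 transcript, 34 of 35 internal exons had a length divisible by 3, and 17 of them were 129 bases long. In the expressed Fbn1 transcript the same held for 60 of 64 internal exons, of which 18 were 126 bases long. Exons of such lengths often encode single EGF-like domains and can be joined or skipped without a shift of the reading frame. The shares, 97.1% and 93.8%, were reached by 0.304% and 0.801% of 6240 protein-coding genes with at least 12 exons, whose median was 38.5%. The share was 61.5% in the V0 transcript of Vcan and 40.0% in the main transcripts of both Hpse and Hpse2, which have 12 exons each. These figures describe the annotation, not the libraries.

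The 250 bases before the RefSeq start site of each gene were read for simple motifs (GRCm38.p6, all 5 genes matched). GGGCGG, the core of a GC box, was found on either strand in all 5 windows and in 32.7% of 32851 promoters, and thus also before Hpse, which was not called. TATAAA, found in 12.4% of promoters, and CACGTG, found in 6.02%, were in none of the 5. The windows held 9 to 16 CpG sites, against a median of 6 over all promoters. The windows of Megf6 (chr4:154170463-154170712, plus strand) and Hpse2 (chr19:43388356-43388605, minus strand), the genes with the widest differences of the 5 in each direction, are printed with GGGCGG or its reverse complement in capitals.
Megf6: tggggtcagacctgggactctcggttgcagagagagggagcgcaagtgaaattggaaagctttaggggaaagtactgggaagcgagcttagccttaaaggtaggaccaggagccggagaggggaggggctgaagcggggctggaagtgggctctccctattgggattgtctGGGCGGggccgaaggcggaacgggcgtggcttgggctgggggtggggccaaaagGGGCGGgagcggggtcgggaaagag
Hpse2: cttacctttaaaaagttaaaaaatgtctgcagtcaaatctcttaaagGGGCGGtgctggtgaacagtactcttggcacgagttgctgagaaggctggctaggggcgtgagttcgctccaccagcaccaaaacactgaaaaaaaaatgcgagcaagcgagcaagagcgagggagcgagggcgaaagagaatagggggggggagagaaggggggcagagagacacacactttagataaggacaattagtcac

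The nearest tested genes along the chromosomes did not share the size of these differences, except for Atp6ap1l near Vcan. Calls among these neighbours stand beside 17.5% called of all tested genes. Fbn1 lies at chr2:125142514-125349913 (minus strand, GRCm39), and none of the nearest 3 genes on either side was called; Dut, the closest at 41.99 kb, had a log2 fold change of 0.88. Hpse2 lies at chr19:42774978-43376794 (minus strand), where Hps1 at 6.56 kb had a log2 fold change of 0.11 and only Got1, at 111 kb, was called (-1.20). Vcan lies at chr13:89803431-89890628 (minus strand), where Xrcc4 at 31.5 kb had 0.28. Of the 6 genes around Vcan only Atp6ap1l was called, 1141 kb away, a low gene at 0.160 ± 0.012 CPM in Rpl22+/+ (SD, n = 3) and at 0 in Rpl22-/-. Around Hpse (chr5:100827350-100867582, minus strand) only Plac8 was called, at 1.04. In this paragraph the values without another unit are log2 fold changes of Rpl22-/- against Rpl22+/+.

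Megf6 (chr4:154255187-154360170, plus strand, GRCm39) is on the chromosome of Rpl22 and begins 1836658 bases beyond its end. Arhgef16, 2.77 kb away on the far side, rose from 0.957 ± 0.307 to 2.00 ± 0.268 CPM, and Prdm16, a transcription factor gene 40.4 kb away, rose from 3.24 ± 0.920 to 16.2 ± 1.93 CPM (SD, n = 3, adjusted p = 0.0444 and 0.000924, edgeR). Wrap73, 3.31 kb away on the near side, had a log2 fold change of 0.79, under the size needed for a call, and Tprgl, at 10.1 kb, one of -0.38. Of 9 tested genes between Rpl22 and Megf6, 1 was called higher and 0 lower, beside 8.93% and 8.54% of all tested genes, with a median log2 fold change of 0.54. The called gene, picked out after its values were seen, was Chd5, a chromatin remodeler gene, with 0.685 ± 0.260 CPM in the Rpl22+/+ libraries and 26.2 ± 3.05 CPM in the Rpl22-/- libraries (SD, n = 3). Loss of Rpl22 and a chromosome segment inherited together with the Rpl22 allele cannot be told apart for genes near Rpl22.

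**Figure D3:**
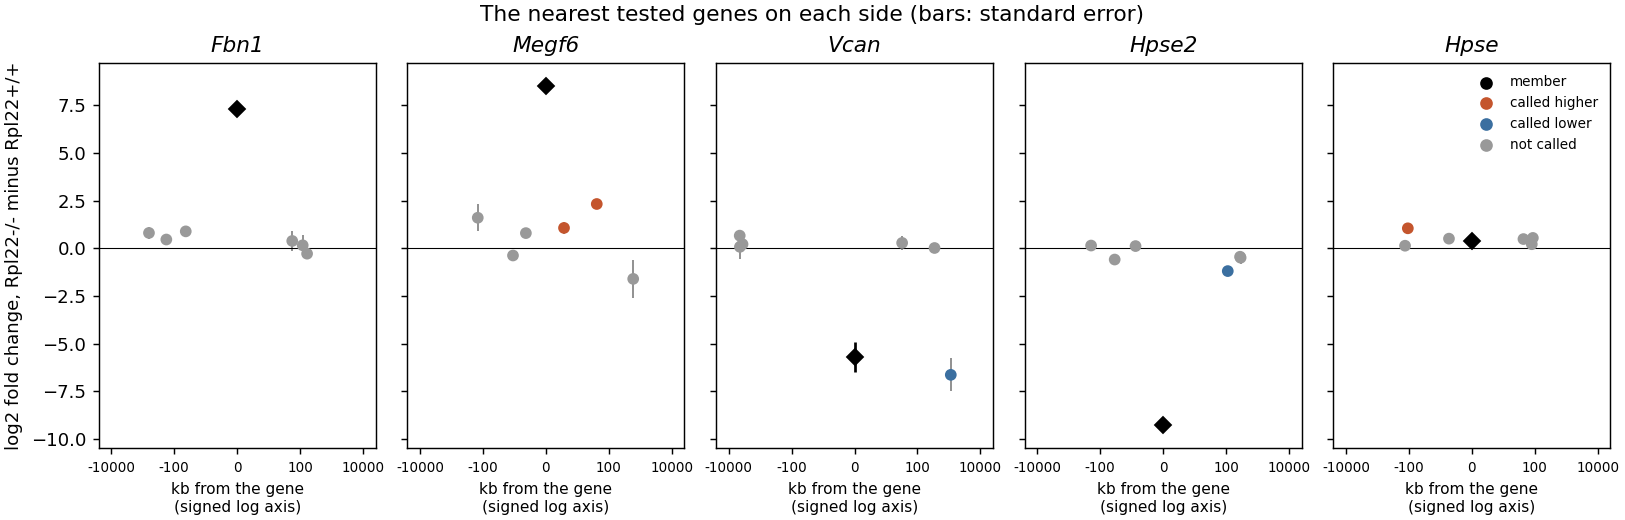
Log2 fold change of each gene (black diamond) and of the 3 nearest tested genes on each side, against the distance in kb on a signed log axis, with bars for the standard error. The differences of Fbn1, Megf6, Vcan and Hpse2 stand far from those of their neighbours except for Atp6ap1l near Vcan, whose point was fitted against a group with no reads.

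For each of the 5 genes, the 3 tested genes with the most similar values over the 6 libraries were taken. Likeness was measured as the Euclidean distance between centred log2 CPM profiles, so genes with an equally large genotype difference were bound to be near. Nearest to Fbn1 was Tie1, a receptor tyrosine kinase of endothelial and blood cells (distance 0.74), from a mean of 0.377 CPM in Rpl22+/+ to 68.4 CPM in Rpl22-/-, followed by Sgsm1 (0.76) and the metallothionein gene Mt2 (1.18). Nearest to Megf6 were Cadps2 (0.83), at 0.00920 and 14.2 CPM, Sgsm1 (1.23) and Tie1 (1.25). Vcan was followed by Pi15 (0.89), Lvrn (1.305) and the peptide transporter gene Slc15a2 (1.32). Slc15a2 was at 11.6, 0.836 and 9.62 CPM in the Rpl22+/+ libraries and Pi15 at 2.75, 0.257 and 2.64 CPM. Replicate 2 was low for them as it was for Vcan, which the choice by likeness over these same libraries favored. Nearest to Hpse2 were Stfa3, a cystatin-type protease inhibitor gene (0.82, from 849 to 2.55 CPM), Ugt1a8 (0.85, from 12.2 CPM to no reads) and Mmp25 (1.119). Hpse lay close to many genes with small differences, the first being Pex14, Emc10 and Lsm2 at distances of 0.087 to 0.095.

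The known partners of these genes, in 10 lists written with earlier results of these data known, changed in both directions. Of 184 genes, 134 were tested, 15 rose and 21 fell, which is 26.9% called beside 17.5% of all genes. Their median log2 fold change was -0.31, beside 0.07 for all genes. The plot of partner genes gives each value. The counts that rose or fell in each list below stand beside 8.93% called higher and 8.54% called lower of all tested genes.

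Among 15 tested genes of fibrillin microfibrils and elastic fibers, 2 rose and 4 fell (median 0.20). Fbn2, the paralog of Fbn1, fell from 1.18 ± 0.155 to 0.228 ± 0.0594 CPM (log2 fold change -2.39 ± 0.33, SE, n = 3 per group, adjusted p = 0.00264, edgeR), opposite to Fbn1. Emilin2, an elastic fiber glycoprotein also known in blood cells, fell by 2.29 on the log2 scale from 425 ± 148 CPM. Adamtsl2, which binds fibrillin, rose by 2.78 from 0.0688 ± 0.0158 CPM. The others called, Efemp2 (1.37), Ltbp4 (-1.57) and Adamts17 (-1.51), are named because the count is small. On the log2(TPM + 1) scale with limma the calls of Fbn2 (adjusted p = 0.0657) and Adamtsl2 (adjusted p = 0.0653) were lost, and 3 genes of the list met the call. Of 15 TGF-beta ligands, receptors and Smads, 1 rose and 3 fell (median -0.38). Acvrl1, a type I receptor of the TGF-beta family, fell from 326 ± 46.5 to 11.01 ± 1.60 CPM, Tgfbi, a TGF-beta-induced matrix protein, fell by 1.66, Smad4, the common Smad, fell by 1.22, and Smad6, an inhibitory Smad, rose by 2.55.

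Among 11 tested versican relatives, hyaluronan partners and cleaving proteases, 3 rose and 1 fell (median 0.05). The gene that fell was Acan, the aggrecan paralog of Vcan, at 0.285, 0.527 and 0.254 CPM in Rpl22+/+ and with no reads in Rpl22-/-, at least 28.9-fold lower against a floor of 3 reads over the group. Adamts1, a protease that cleaves versican, was at 0.0712, 0.135 and 0.107 CPM in Rpl22+/+ and 1.18, 1.87 and 7.32 CPM in Rpl22-/-, and Adamts5, another such protease, rose from 0.0279 ± 0.0251 to 0.565 ± 0.0998 CPM. Selp, an adhesion receptor of platelets and endothelium, rose from 3.37 ± 0.380 to 17.7 ± 3.03 CPM, and the paralogs Bcan and Ncan were too low to be tested. With limma on log2(TPM + 1) the calls of Acan, Adamts1 and Adamts5 were lost (adjusted p = 0.115, 0.0661 and 0.0865), and 1 gene of the list met the call. Cd44, the main hyaluronan receptor, had 595 CPM with Rpl22+/+ and 366 CPM with Rpl22-/- (log2 fold change -0.70), under the size needed for a call. Of 21 enzymes of the glycosaminoglycan linkage and of chondroitin sulfate synthesis, 2 rose and 2 fell (median -0.33). Chst15, which adds a further sulfate to chondroitin chains, fell by 2.66 from 97.1 ± 9.72 CPM. Dse, an epimerase that makes dermatan sulfate, fell by 2.08, and its relative Dsel rose by 1.87. The Dsel call was lost without Rpl22+/+ replicate 3 (adjusted p = 0.0597, edgeR) or Rpl22-/- replicate 1 (0.0663) or 3 (0.0673). On the log2(TPM + 1) scale with limma Dsel was at 0.48, under the size needed for a call.

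The heparan sulfate genes, whose products carry, make or degrade the chains that heparanase cleaves, had 6 of 34 tested members called over 3 lists, which is 17.6% beside 17.5% of all genes. Of 10 proteoglycan cores, 3 rose and 0 fell (median 0.16). Srgn, the granule proteoglycan serglycin, rose from 320 ± 12.3 to 1604 ± 139 CPM. Sdc2, a syndecan, rose from 0.349 ± 0.0571 to 2.59 ± 0.473 CPM, and Gpc2, a glypican, rose by 1.63. With limma on log2(TPM + 1) Sdc2 was at 0.82, under the size needed for a call. Of 15 genes of heparan sulfate synthesis, 1 rose and 1 fell (median -0.20), namely Glce, an epimerase (1.17), and Ndst1, which removes acetyl groups and adds sulfate (-1.82, from 238 ± 41.98 CPM). Of 9 genes of heparan sulfate breakdown and heparanase processing, 0 rose and 1 fell (median -0.26), the lysosomal acetyltransferase Hgsnat (-1.78).

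Among 16 tested MEGF and other EGF-repeat genes, 2 rose and 2 fell (median -0.40). Scarf1, a scavenger receptor with EGF-like repeats, rose from 1.17 ± 0.217 to 40.7 ± 3.48 CPM (log2 fold change 5.12 ± 0.20, SE, n = 3 per group, adjusted p = 3.53e-05, edgeR). Stab1 fell by 1.53 and Stab2 rose by 1.52, both scavenger receptors, but Stab1 had a log2 difference of 0.068 on the log2(TPM + 1) scale and Stab2 was not past the threshold with protein-coding transcripts only or without Rpl22-/- replicate 2. Scarf2, the paralog of Scarf1, fell by 1.27. With limma on log2(TPM + 1) only 1 gene of the list met the call, with Scarf1 at 3.74 and Stab2 at 0.49, under the size needed. Megf9 was at -0.83 and Megf10 at -0.96 on the log2 scale, neither of them called, and Megf11 was too low to be tested. Without Rpl22+/+ replicate 2 both were called lower, Megf9 at -1.16 (adjusted p = 0.00145, edgeR) and Megf10 at -1.29 (adjusted p = 0.00415, edgeR). The DESeq2 Wald test gave -0.88 for Megf9 (adjusted p = 0.0403) and -1.01 for Megf10 (adjusted p = 0.0324), a call for Megf10 only.

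Of 14 matrix metalloproteinases and inhibitors, 1 rose and 5 fell (median -0.79). Mmp25 fell from 325 ± 43.6 to 2.03 ± 0.289 CPM, Mmp8, the neutrophil collagenase, from 827 ± 130.2 to 59.9 ± 18.6 CPM, and Mmp9, a gelatinase of neutrophil granules, from 2800 ± 531 to 272 ± 63.7 CPM. All 3 are enzymes that neutrophils are known to make. Mmp15 (-2.55) and the inhibitor gene Timp2 (-1.42) also fell, and Mmp28 rose by 2.58. Of 8 integrins that bind the RGD motif present in fibrillin-1, 0 rose and 2 fell (median -0.79). Itgb3 fell from 51.5 ± 7.498 to 10.7 ± 0.456 CPM. Itga8 fell by 1.44 from 0.881 ± 0.132 CPM with an adjusted p of 0.0392. The Itga8 call was lost with library totals alone (adjusted p = 0.0523, edgeR), with no filter on low counts (adjusted p = 0.0709, edgeR), on both log2 TPM scales and without any 1 of Rpl22+/+ replicates 1 and 3 or Rpl22-/- replicates 1 and 2, which leaves 1 integrin called.

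**Figure D4:**
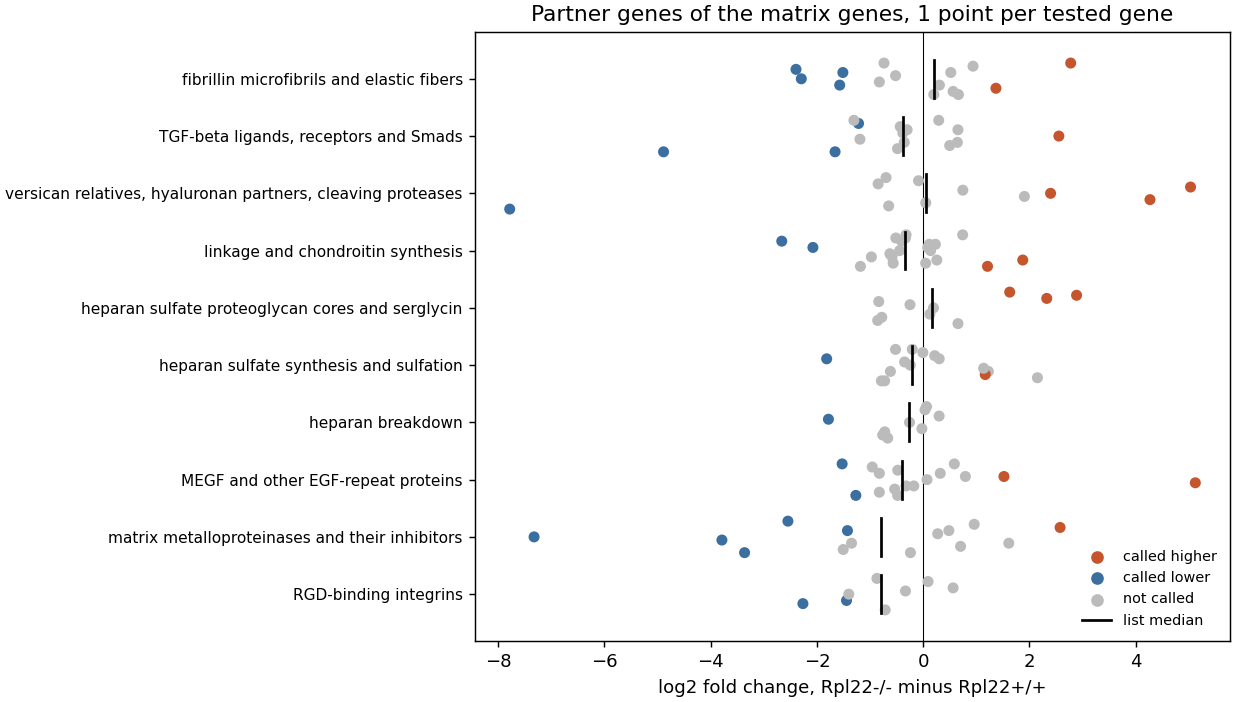
Log2 fold change of Rpl22-/- against Rpl22+/+ for each tested partner gene, grouped by list, red for called higher, blue for called lower, grey for not called, with a black line at the list median. Most points are grey and lie near 0, the list medians run from -0.79 to 0.20, and the blue point near -8 is Acan, fitted against a group with no reads.

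Markers of cells that could accompany the sorted population were summed beside these values. The counts of markers called, here and in the next paragraph, stand beside 8.93% higher and 8.54% lower of all tested genes. Fibrillin-1 is best known from fibroblasts. The sum of the fibroblast and stromal markers was 7.31 to 8.65 TPM in Rpl22+/+ and 1.92 to 3.25 TPM in Rpl22-/-, 0 of 8 tested rose and 4 fell (Col5a1, Pdgfrb, Pdpn and Acta2), and 14 of 22 did not pass the filter. The tested markers that were not called were Fap, at 0.89 on the log2 scale, Tagln at 0.81, Cdh11 at -0.40 and Col1a1 at -0.49. Over all 6 libraries Col1a1 had 1591 reads (a mean of 3.95 CPM in the Rpl22+/+ libraries and 2.81 CPM in the Rpl22-/- libraries, with SDs of 0.285 and 1.11), whereas Col1a2 had 13, Col3a1 15, Dcn 22 and Lum 4. The part of stromal cells in the Fbn1 values was not tested. Endothelial markers had a sum of 0.936 to 1.16 TPM in Rpl22+/+ and 2.72 to 3.57 TPM in Rpl22-/-. Of 5 tested, 2 rose, Vwf and Kdr, while Ptprb (0.62 on the log2 scale), Cdh5 (-0.65) and Plvap (-0.63) were not called, the list median was 0.62, and Emcn had 2 reads in all and Tek 8. Without Vwf the sum was 0.774 to 0.953 TPM in Rpl22+/+ and 0.761 to 0.854 TPM in Rpl22-/-. The part of endothelial cells in the Fbn1 and Megf6 values was not tested.

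Monocyte markers, which bear on Vcan, summed to 2821, 3338 and 3261 TPM in Rpl22+/+ and 3282, 4098 and 3797 TPM in Rpl22-/-. Ly6c2 alone made up 1677, 2171 and 1862 TPM and 2631, 3302 and 2767 TPM of these sums, and it was not called (log2 fold change 0.51). Without Ly6c2 the sums were 1145, 1166 and 1399 TPM in Rpl22+/+ and 651, 796 and 1029.7 TPM in Rpl22-/-. Of the 12 markers 0 rose and 4 fell, Csf1r, Ccr2, Fcgr1 and Adgre1, and the list median was -0.93 on the log2 scale. Ccr2 was lowest in Rpl22+/+ replicate 2, as Vcan was, at 217 CPM against 428 and 499 CPM, whereas Csf1r was highest there, at 606 CPM against 318 and 387 CPM. Granulocyte markers summed to 133343 to 139784 TPM in Rpl22+/+ and 113863 to 136698 TPM in Rpl22-/-, and S100a9, the most abundant, had a log2 fold change of -0.45. Of 11 such markers 3 rose, the early granule genes Mpo, Elane and Prtn3, and 5 fell, namely Ly6g, Ltf, Camp, Cxcr2 and Itgam, of which the first 4 mark later granulocytes. Itgam encodes CD11b and Ly6g an antigen of Gr1, the surface proteins of the sort. Erythroid markers, led by the globin gene Hbb-bs, rose for 5 of 6 genes, from 148 to 173 TPM in Rpl22+/+ to 925 to 1688 TPM in Rpl22-/-, and T cell markers, led by Cd3d, fell for 4 of 5, from 25.3 to 31.7 TPM to 8.43 to 10.1 TPM. None of the 5 B cell markers, led by Cd79a, was called (395 to 502 TPM against 284 to 388 TPM), nor any of the 4 tested megakaryocyte and platelet markers, led by Gp9 (3.90 to 5.32 TPM against 5.87 to 6.32 TPM). The part of these cells in the differences of the 5 genes was not tested.

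**Figure D5:**
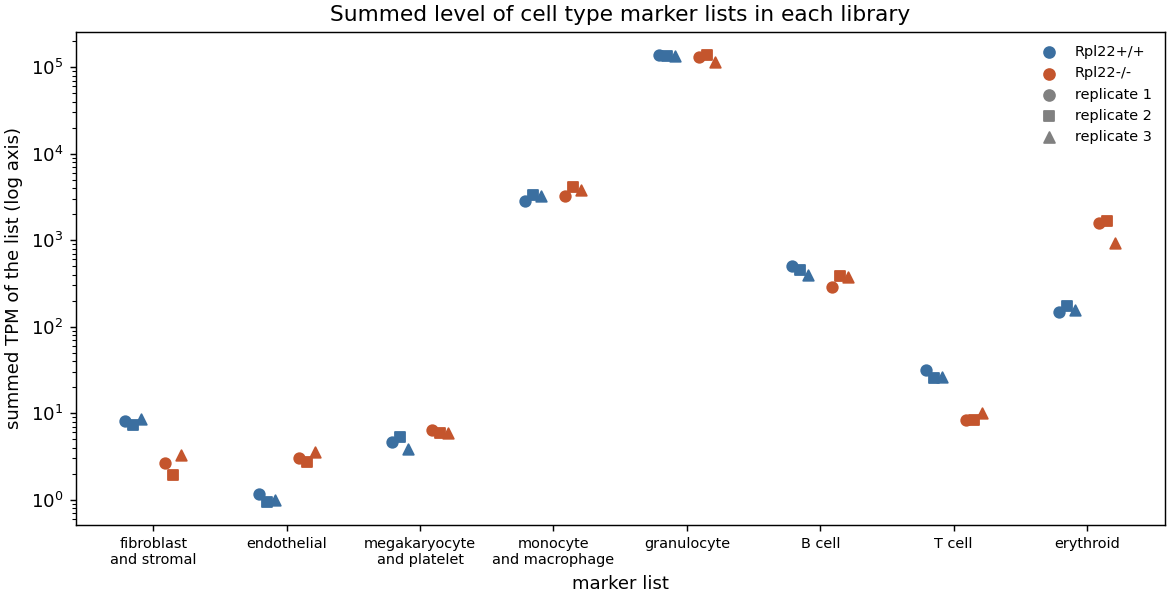
Summed TPM of each marker list in each library on a log axis, blue for Rpl22+/+ and red for Rpl22-/-, with the shape giving the replicate number. Stromal, T cell and B cell sums are lower in every Rpl22-/- library than in any Rpl22+/+ library, endothelial sums, which Vwf carries, platelet sums and erythroid sums are higher, and the granulocyte sum is at least 113863 TPM in all 6 libraries.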

How the data were processed

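Poly(A) RNA libraries were made with a stranded paired-end kit. Per the submitters' processing notes and the study's methods, reads were trimmed with Trimmomatic and quantified with Salmon, whose versions and transcript set are not given in the sources used here. The authors deposited estimated counts and TPM per transcript for each library. They also deposited a DESeq2 comparison (base mean, log2 fold change with its error, Wald score, p-values); only its GRCm39 gene positions were used.

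Transcript identifiers were matched to GENCODE vM21, on GRCm38 (136036 of 276623 matched, holding 98.0% to 98.1% of reads), summed to genes and rounded. Genes passing edgeR's expression filter were tested with edgeR 4.0.16 (R 4.3.3), quasi-likelihood with TMM scaling, Rpl22-/- against Rpl22+/+, with Benjamini-Hochberg adjustment and no block. The fit was tested on simulated data. Alternatives used DESeq2 1.42.0, limma 3.58.1, other filters and scaling, and 1 library left out at a time. Sums of markers without the most abundant gene of a list were added after seeing the data. The 5 genes, the lists and the motifs were chosen with earlier results of these data known. Named genes were, by rule, paralogs, the 3 called genes of largest change in each partner list, the 3 profiles nearest each gene, the 3 nearest tested genes on each side and the most abundant marker of each list; others are named where counts were small, 1 paralog is not reported here, and neighbours not named in the text are in the plot only.
Splitting reads among isoforms depends on the transcript set, and intervals on reads cover counting error only.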

Additional observations from a re-analysis of the deposited data

How the results depend on the processing

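Over 16 alternatives, Fbn1 and Megf6 were higher and Vcan and Hpse2 lower in Rpl22-/- in each. With limma on log2(TPM + 1), 906 genes were called higher and 699 lower and 13 partner genes were lower, and the differences were 3.74 for Fbn1, 4.70 for Megf6, -3.44 for Vcan, -2.33 for Hpse2 and 0.51 for Hpse; a pseudocount shrinks differences of low genes. With log2(TPM + 0.1) they were 6.24 for Fbn1, 7.48 for Megf6, -5.29 for Hpse2 and 0.52 for Hpse. Stab1 turned to 0.068 and 0.13 on these scales, and the cause was not tested. Limma-voom gave -8.94 for Hpse2. Without a composition factor Hpse was at 0.55, and the median of all genes moved by 0.13. Leaving out 1 library gave 1031 to 1708 genes higher and 1177 to 1723 lower, 14 to 17 partner genes higher and 17 to 24 lower, 7.15 to 7.45 for Fbn1, 8.36 to 8.70 for Megf6, -6.18 to -5.16 for Vcan, -9.39 to -9.20 for Hpse2 and 0.24 to 0.59 for Hpse (0.59 without Rpl22+/+ replicate 2). With estimated reads in place of TPM, V0 was 32.7% and V1 62.3% of Vcan in Rpl22+/+, and in Rpl22-/- the full-length Megf6 transcript was 92.9% and the longer Hpse transcript 98.8% of their genes, since reads are not divided by length.

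Same-numbered libraries correlated at 0.479, 0.634 and 0.0974 in their deviations from the group means. For each Rpl22-/- library this was its highest correlation with any Rpl22+/+ library. Rpl22+/+ replicate 3, however, correlated more with Rpl22-/- replicate 1 (0.357) than with its own number. The numbers were not taken as pairs in the main fit, and a block by number was an alternative. With the replicate block, 1691 genes were higher and 1488 lower, 16 partner genes were higher and 24 lower, and Hpse was at 0.43 (adjusted p = 0.0698, edgeR).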
